A study of Mus musculus with 47 samples.

Results

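The cytochrome P450 genes of mouse lung, whole blood cells and aorta were followed after mice had inhaled GMA-SS fume, which is produced by gas metal arc welding with a stainless steel wire. A gene was taken as a member when its symbol began with Cyp, followed by a family number, subfamily letters and a gene number. This rule found 75 genes among the 17969 genes on the beadchip. *Cyp51*, a P450 of cholesterol synthesis, has no such ending and was not a member. Male C57BL/6J mice, 6 weeks of age, inhaled air or GMA-SS fume at 40 mg/m3 for 3 hr/d on 10 days, and tissues were taken 4 hr or 28 d after the last exposure. Each of the 12 groups (3 tissues, 2 exposures, 2 times) held 4 arrays of different mice, except the GMA-SS group of aorta at 4 hr, which held 3 here. Blood and aorta arrays carry the same mouse numbers, and lung arrays carry others. The lung sample was a homogenate of the whole organ, the aorta was homogenized, and globin RNA had been removed from the blood RNA. Each beadchip held 1 tissue at 1 time with air arrays in the first 4 positions, so position and exposure cannot be told apart, nor can time and beadchip. Markers listed for each tissue were above background on at least 3 of its arrays. They were 11 of 11 alveolar type II cell markers in lung and 12 of 15 leukocyte markers in blood. In aorta they were 10 of 10 smooth muscle markers. These lists do not set the tissues apart. By the same rule 12 leukocyte and 9 smooth muscle markers were also found in lung, 6 type II markers in blood and 13 of 14 fat cell markers in aorta.

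Cytochromes P450 are heme enzymes that insert oxygen into small molecules with electrons passed on from a reductase. Families 1 to 3 act mainly on foreign compounds such as drugs and combustion products, family 4 mainly on fatty acids, and the higher families on sterols, steroids, retinoids and vitamin D. In mouse airways the club cells are the main site of *Cyp2f2*, the enzyme that activates naphthalene, and the lung is also a known site of *Cyp4b1* and *Cyp2a5*.

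A gene was tested in a tissue when its signal was above background (detection p under 0.05 against negative control beads) on at least 3 arrays, which held for 28 of 75 genes in lung, 22 in aorta and 15 in blood. Of all 17969 genes, 11156, 9870 and 9277 were tested in these tissues. Counted over any single array the order was another, with 37 members above background in aorta, 30 in lung and 24 in blood. In aorta the arrays with high club cell or liver marker sums, described below, held 22 to 28 members each, and the others 14 to 20. A single array above this threshold can also arise by chance. By the rule of at least 3 arrays, 32 genes were tested in at least 1 tissue and 43 in none. Above background on no array at all were 33 genes. The genes tested in no tissue included 2 members of the *Cyp4a* group, *Cyp4a14* and *Cyp4a31*. In all 3 tissues 11 genes were tested, among them *Cyp2d22*, *Cyp27a1*, *Cyp4f13* and *Cyp4v3*, which were above background on every array. *Cyp2f2*, *Cyp4b1*, *Cyp1b1*, *Cyp2e1* and *Cyp7b1* belonged to 8 genes tested in lung and aorta only. In lung alone 6 genes were tested, which were *Cyp2a5*, *Cyp26b1*, *Cyp4a12a*, *Cyp4a12b*, *Cyp4f15* and *Cyp4f39*. *Cyp2b9* was tested in blood alone, and *Cyp2u1*, *Cyp2d9* and *Cyp2d10* in aorta alone. In lung and blood but not in aorta, 3 genes were tested, and *Cyp4f18*, which inactivates leukotrienes in mouse myeloid cells, was above background on all 16 blood arrays.

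**Figure D1:**
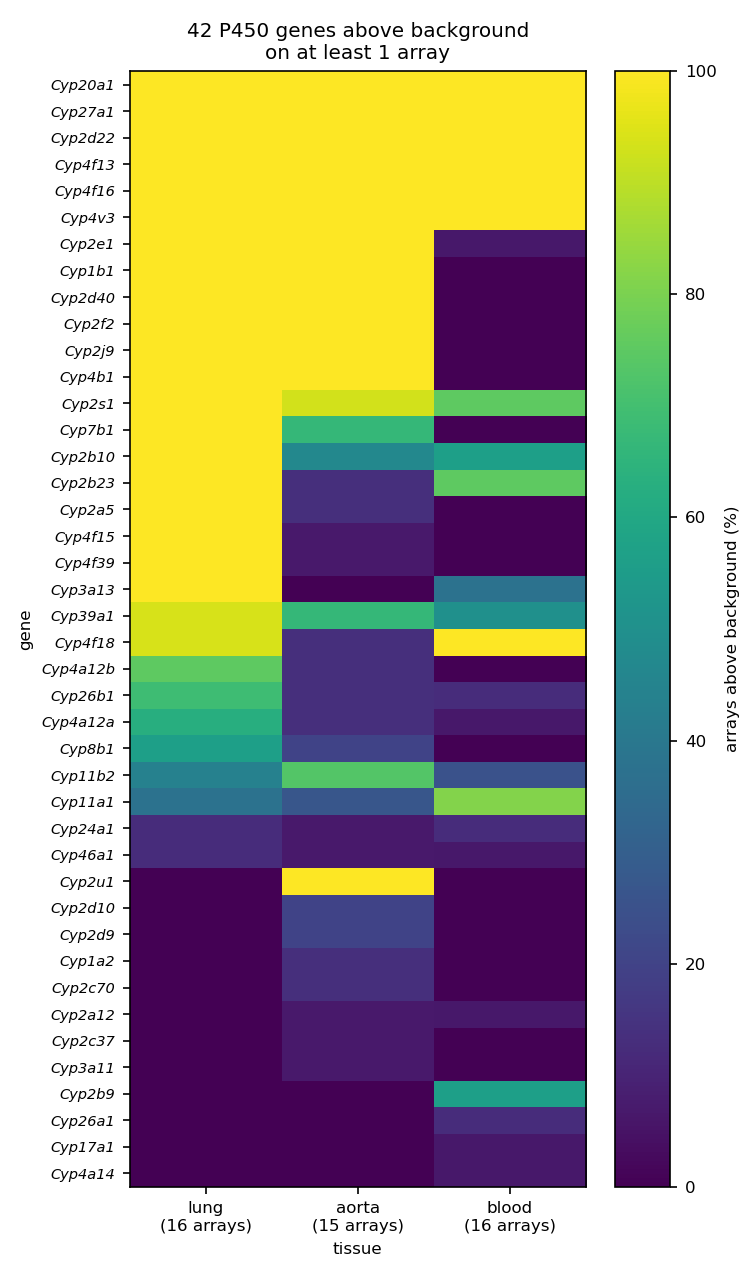
Share of arrays (color, %) on which each of 42 P450 genes was above background, by tissue (columns). The remaining 33 members were above background on no array and are not drawn; 20 genes were above background on every lung array, 13 on every aorta array and 7 on every blood array.

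Several members lie in clusters of related genes. *Cyp2f2* and *Cyp2a5*, the airway genes of family 2 with the smallest and the largest called fall in lung at 4 hr, start 285 kb apart on chromosome 7. Their upstream regions are shown because these neighbors bracket the range of called falls in the family at 4 hr, a choice made after their values were seen. Each run is the 250 bases before the start of the gene on the plus strand of mouse build GRCm38.p6, from RefSeq, at chr7:27119705-27119954 for *Cyp2f2* and chr7:26835089-26835338 for *Cyp2a5*. Capitals mark matches to 1 of 6 motifs searched on both strands, which do not overlap here.
Cyp2f2: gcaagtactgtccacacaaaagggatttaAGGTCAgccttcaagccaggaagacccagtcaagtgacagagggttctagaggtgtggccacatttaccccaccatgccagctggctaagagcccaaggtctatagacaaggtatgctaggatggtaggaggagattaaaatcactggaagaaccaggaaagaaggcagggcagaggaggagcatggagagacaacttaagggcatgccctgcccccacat
Cyp2a5: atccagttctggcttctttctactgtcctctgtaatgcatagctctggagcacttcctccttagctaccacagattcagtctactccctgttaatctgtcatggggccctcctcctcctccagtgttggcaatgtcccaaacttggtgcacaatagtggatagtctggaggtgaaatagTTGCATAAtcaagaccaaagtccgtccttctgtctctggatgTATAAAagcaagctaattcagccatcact
*Cyp2f2* held the nuclear receptor motif AGGTCA, 221 bases before the start, and none of the other motifs. *Cyp2a5* held a C/EBP motif TTGCNNAA at 71 bases and a TATA box TATAAA at 29 bases. Of all 32851 regions of this length, AGGTCA was in 14%, TTGCNNAA in 9.56% and TATAAA in 12.4%. Of the lung-tested members 22 had such a region in the set searched, and 3, 6 and 5 of them held these motifs. A member was counted when any of its regions held the motif, whereas the shares are of single regions. The Ah receptor core GCGTG was in 7 of the 22, among them *Cyp1b1*, and in 28.2% of all regions. The forkhead motif TGTTTAC was in none of the 22 and in 3.17% of all regions, and the NKX2-1 motif CTCAAG was in 2 of the 22 and in 13.3% of all regions. A match in these letters is a description and not a site of binding.

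In the lung the P450 genes that changed were mostly lower after GMA-SS. At 4 hr, 12 of the 28 tested genes fell and 2 rose (limma, adjusted p under 0.05 over 11156 genes). Of all genes tested, 19.4% passed at this time, 9.87% lower and 9.56% higher. At 28 d, 7 fell and 4 rose, against 16.3% of all genes, 8.65% lower and 7.66% higher. This count of 11 was 6 or 7 when any array of the 28 d groups but GMA-SS replicate 4 was left out, with 2 or 3 risers, and 12 without GMA-SS replicate 4. Air and GMA-SS arrays did not overlap for 15 members at 4 hr and 8 at 28 d, against 26.5% and 15.7% of all genes. Over the 28 members the log2 fold change had its median at -0.25 (4 hr) and -0.10 (28 d), and over all genes at -0.04 each time. With the thresholds of the study for lung (1.3-fold, unadjusted p under 0.05), 13 members passed at 4 hr and 8 at 28 d, against 13.5% and 11.9% of all genes. The filter on background acts on these counts, since *Cyp4a12a*, *Cyp4a12b* and *Cyp8b1* were above background on no array of 1 group. In a homogenate, fewer cells of a type and less RNA per cell cannot be told apart.

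By time, 8 genes passed at both times, 6 at 4 hr alone, 3 at 28 d alone, and 11 at neither. The share of all genes that passed at both times was not counted, so these counts describe the members only. Lower at both times were *Cyp2f2*, *Cyp2d22*, *Cyp4b1*, *Cyp4f15*, *Cyp27a1* and *Cyp8b1*, and *Cyp7b1* was higher at both. *Cyp4v3* was lower at 4 hr and higher at 28 d. A gene past the threshold at 1 time only is not shown to differ between times, and this difference was tested for itself. The effect differed between 28 d and 4 hr for 3 members, *Cyp4a12b*, *Cyp4a12a* and *Cyp2a5*, against 0.574% of all genes. Each passed as lower at 4 hr and did not pass at 28 d. In blood and aorta no member differed between times, and 0% of all genes did. The plot of fold changes by family shows both times for all 28 genes.

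**Figure D2:**
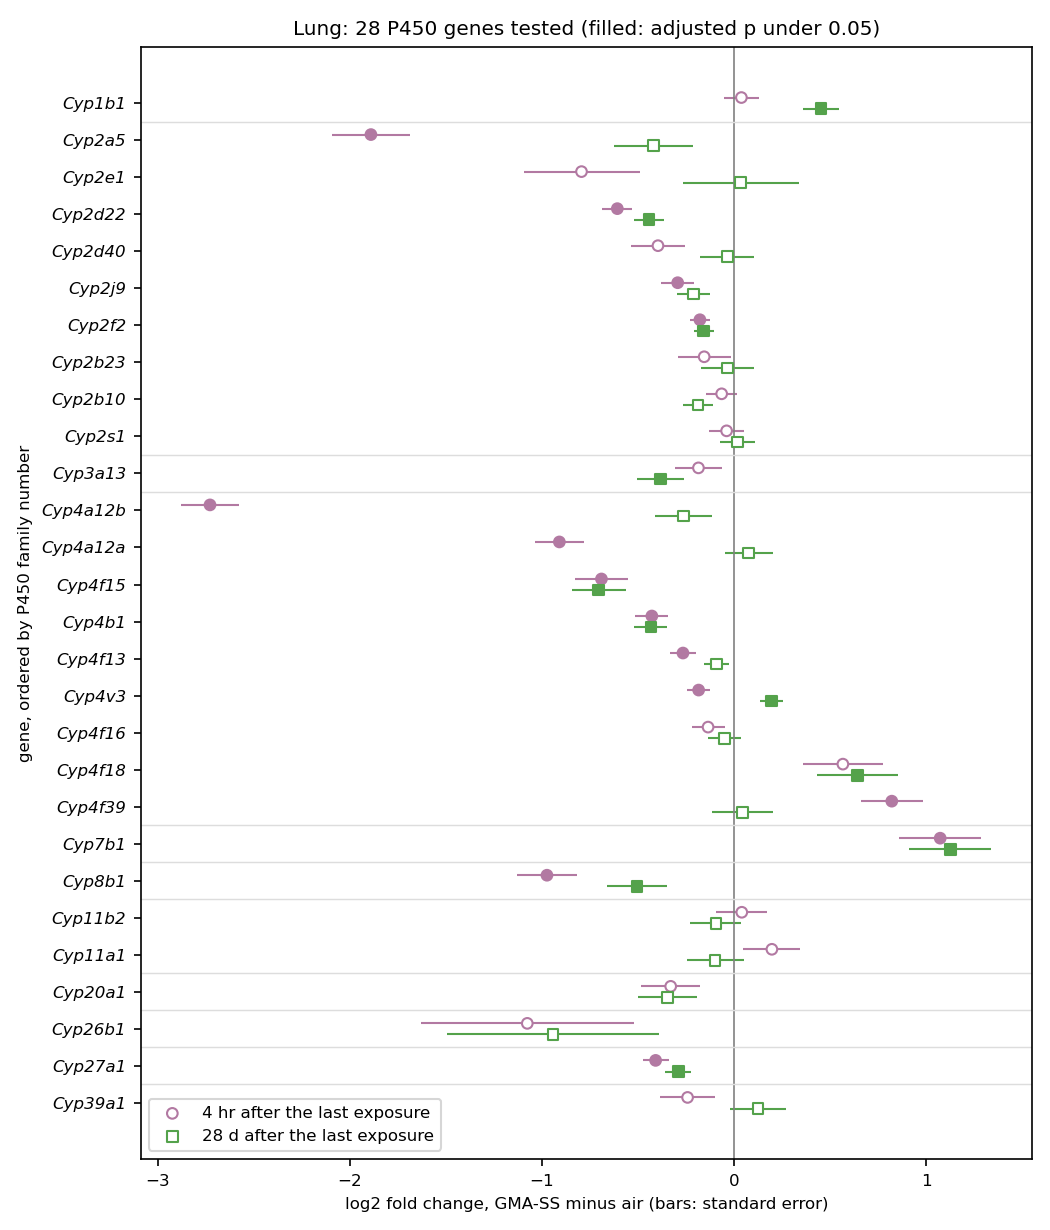
Log2 fold change of GMA-SS over air in lung (x axis, bars are standard errors, 4 arrays a group) for the 28 tested P450 genes, ordered by family number, at 4 hr (circles) and 28 d (squares). Filled symbols passed an adjusted p of 0.05: at 4 hr 12 lie left of 0 and 2 right of it, at 28 d 7 and 4.

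Among the family 2 genes, 4 of 9 fell at 4 hr and 2 of 9 at 28 d, and none rose. Of all genes tested, 9.87% and 8.65% fell. All 9 log2 fold changes were below 0 at 4 hr, and 7 of 9 were at 28 d, against 57.4% and 61% of all genes. *Cyp2f2* had a signal of 16.05, 16.01, 15.99 and 15.96 (log2 normalized) in the air group at 4 hr, and 15.83, 15.80, 15.80 and 15.87 after GMA-SS. The values at 28 d ranged from 15.98 to 16.02 in air and were 15.68, 15.91, 15.82 and 15.96 after GMA-SS. At each time every GMA-SS array was below every air array. The log2 fold change was -0.18 (SE 0.0518, limma, adjusted p = 0.0228) at 4 hr and -0.16 (SE 0.0518, limma, adjusted p = 0.0459) at 28 d. The call at 28 d was lost without any 1 of 6 of the 8 arrays (adjusted p up to 0.171) and the call at 4 hr without any 1 of 3 (up to 0.0688).

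*Cyp2f2* was close to the top of the scale in lung, which bears on the size of this change. It was the 4th to 13th brightest entry of an array in air at 4 hr and the 19th to 23rd after GMA-SS, and the 7th to 12th and 14th to 28th at 28 d. Its average signal, as exported and before normalization, was 68371 to 71128 in air and 61994 to 66388 after GMA-SS at 4 hr, and 60995 to 64068 and 46243 to 60113 at 28 d. These ranges do not overlap either, and the brightest entry of a lung array was between 65854 and 73187. At such ranks quantile normalization sets the level largely from the rank. With scaling to the 75th percentile in its place, the log2 fold change was -0.19 (adjusted p = 0.12, limma) at 4 hr and -0.16 (adjusted p = 0.223) at 28 d.

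*Cyp2a5*, the coumarin hydroxylase that also oxidizes nicotine, showed the largest fall of the family. Its signal was 12.52, 11.73, 12.08 and 11.60 in air and 9.95, 10.09, 10.46 and 9.86 after GMA-SS at 4 hr. The groups stood more than 1 log2 unit apart, and the log2 fold change was -1.89 (SE 0.205, limma, adjusted p = 6.35e-06), a 3.71-fold lower signal. At 28 d it was 11.15, 11.15, 10.72 and 10.63 in air and 10.11, 10.35, 10.53 and 10.99 after GMA-SS. These groups overlapped, and the log2 fold change was -0.42 (adjusted p = 0.185, limma), which passed when GMA-SS replicate 4 was left out. The difference between both times was 1.47 (SE 0.29, limma, adjusted p = 0.026), with the air groups themselves at 11.98 ± 0.41 (SD, n = 4) at 4 hr and 10.91 ± 0.28 at 28 d. The call on the difference was lost when any 1 of 6 of the 16 lung arrays was left out (adjusted p up to 0.0706). The *Cyp2a5* entry averages several probes, so copies and transcripts are not resolved in these values.

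*Cyp2d22*, the mouse gene most often set beside human CYP2D6, changed at both times. At 4 hr it was 11.49, 11.56, 11.44 and 11.59 in air and 11.00, 10.70, 10.89 and 11.05 after GMA-SS. By 28 d the values were 11.59, 11.53, 11.73 and 11.66 in air and 11.11, 11.16, 11.10 and 11.37 after GMA-SS. Air and GMA-SS arrays did not overlap, and the log2 fold changes were -0.61 (SE 0.0778, limma, adjusted p = 3.89e-05) and -0.44 (SE 0.0778, limma, adjusted p = 0.00107). *Cyp2j9*, an arachidonate hydroxylase, fell by 0.29 on the log2 scale at 4 hr (9.53 ± 0.10 in air and 9.24 ± 0.15 after GMA-SS, limma, adjusted p = 0.0257), and was -0.21 at 28 d (adjusted p = 0.115).

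The other genes of family 2 did not pass the test in lung. *Cyp2b10*, which phenobarbital induces in liver, gave log2 fold changes of -0.06 and -0.19 (adjusted p = 0.625 and 0.123, limma). *Cyp2s1*, a P450 of epithelia, gave -0.04 and 0.02 (adjusted p = 0.816 and 0.916, limma). *Cyp2e1*, the ethanol-oxidizing P450 of liver and fat, was 11.92, 12.15, 11.80 and 12.85 in air and 11.21, 11.81, 11.58 and 10.95 after GMA-SS at 4 hr. Those groups overlapped at 1 GMA-SS array (log2 fold change -0.79, SE 0.302, limma, adjusted p = 0.0774). In a fit on these 8 arrays alone the adjusted p was 0.0267. The summed normalized signal of 10 fat cell markers (linear scale, as for all marker sums here) on the same arrays was 41237 to 55205 in air and 25318 to 33367 after GMA-SS, and its part in the *Cyp2e1* values was not tested. The log2 fold change of *Cyp2e1* at 28 d was 0.04 (adjusted p = 0.955, limma).

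**Figure D3:**
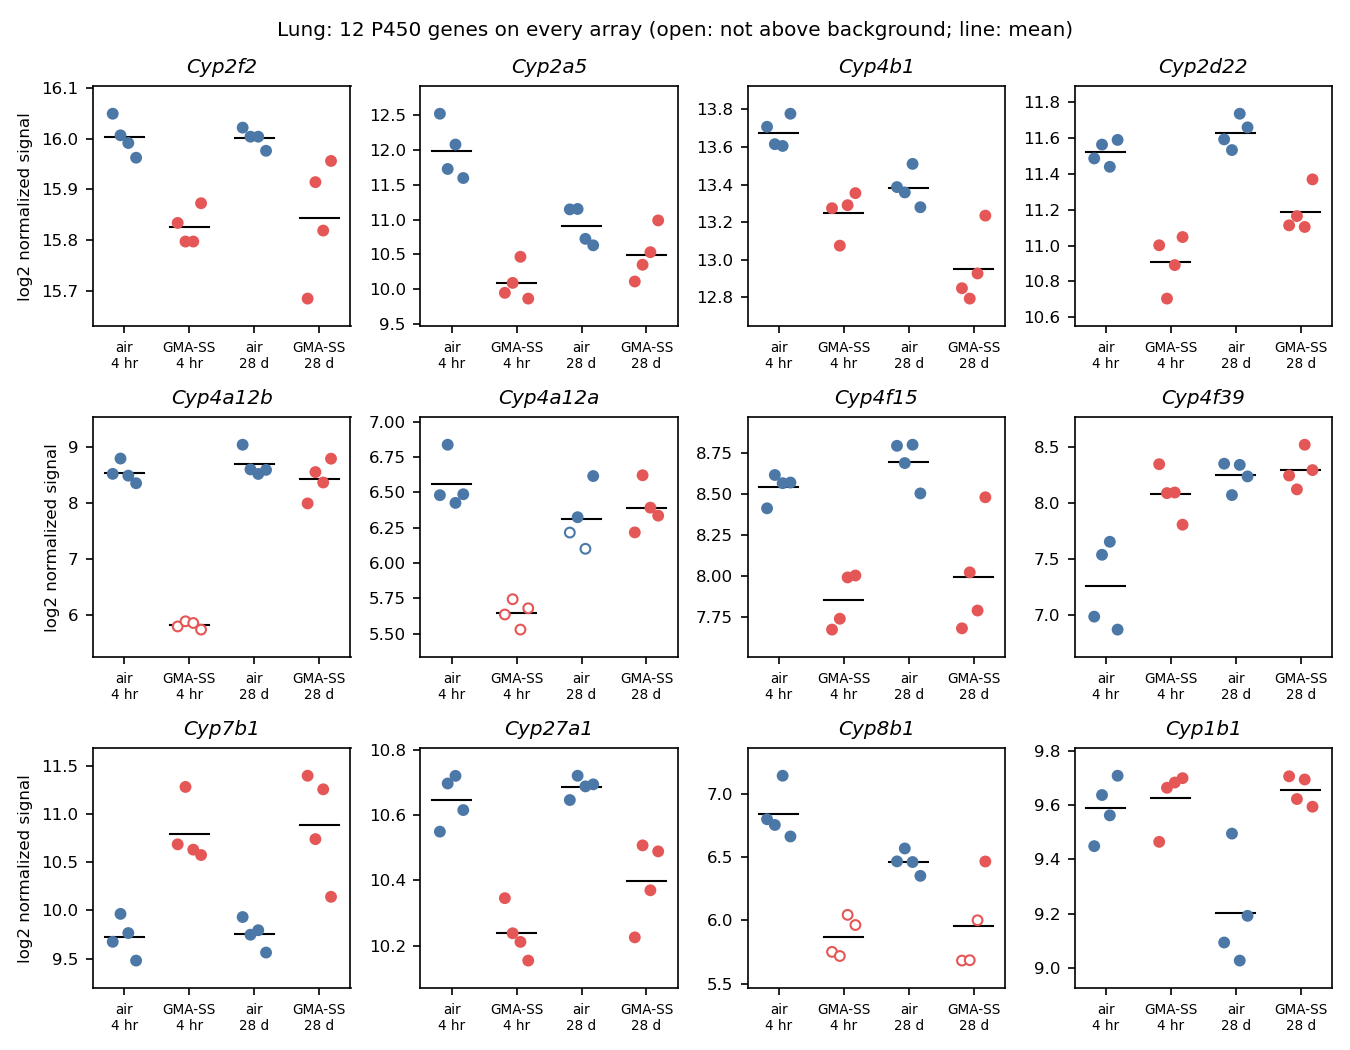
Log2 normalized signal (y axis, a separate scale in each panel) of 12 P450 genes on each of the 16 lung arrays, by group (x axis); blue is air, red is GMA-SS, open points were not above background and lines are group means. *Cyp4a12b* dropped to background on all 4 GMA-SS arrays at 4 hr and lay between 7.99 and 8.80 on the GMA-SS arrays at 28 d.

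In family 4, 6 of 9 tested genes fell and 1 rose at 4 hr, and 2 fell and 2 rose at 28 d. Of all genes tested, 9.87% fell and 9.56% rose at 4 hr, and 8.65% and 7.66% at 28 d. The *Cyp4a12* pair encodes fatty acid hydroxylases that turn arachidonate into the vasoconstrictor HETE in male mice. *Cyp4a12b* was 8.52, 8.80, 8.49 and 8.36 in air at 4 hr, and 5.79, 5.88, 5.85 and 5.73 after GMA-SS, where it was above background on none of the 4 arrays. Its level after GMA-SS is therefore a bound. The signal was at least 4.85-fold lower, with the lowest signal above background on each array standing in where the gene was dimmer. The bound itself was not tested. The adjusted p of 3.46e-09 (limma) is that of the fitted values, which include those at background. This bound holds on the background-corrected scale. The log2 fold change was -1.48 with no background correction and -0.56 in the normalized values that the submitters made, both past the threshold. The 28 d values were 9.05, 8.60, 8.52 and 8.59 in air and 7.99, 8.56, 8.37 and 8.80 after GMA-SS, above background on all 8 arrays. These groups overlapped, with a log2 fold change of -0.26 (adjusted p = 0.263, limma). The effect differed between the times (limma, adjusted p = 1.96e-05). The fitted difference of 2.46 rests on values at background and is no measured size, and it was 1.3 with no background correction. The air groups were at 8.54 ± 0.19 and 8.69 ± 0.24 (SD, n = 4).

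*Cyp4a12a* followed the same order at a dimmer signal. It was 6.48, 6.84, 6.43 and 6.49 in air and 5.64, 5.74, 5.53 and 5.68 after GMA-SS at 4 hr, where no GMA-SS array was above background. This gave an at least 1.22-fold lower signal on the background-corrected scale, a bound not tested for itself. The fitted values gave an adjusted p of 8.44e-05 (limma). In the submitters' normalized values the log2 fold change was -0.125. At 28 d the values were 6.22, 6.32, 6.10 and 6.61 in air and 6.22, 6.62, 6.39 and 6.34 after GMA-SS, and 2 of the air arrays were not above background. The log2 fold change was 0.08 (adjusted p = 0.744, limma), and the effect differed between times (limma, adjusted p = 0.0166), where the fitted difference of 0.99 again rests on values at background. *Cyp4a12a* and *Cyp4a12b* are close copies, and how far a probe of one also binds the other is not known from the values used here.

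*Cyp4b1*, a lung P450 that activates furan toxins, was lower at both times. At 4 hr it was 13.71, 13.61, 13.61 and 13.78 in air and 13.27, 13.08, 13.29 and 13.35 after GMA-SS. At 28 d it was 13.39, 13.36, 13.51 and 13.28 in air and 12.85, 12.79, 12.93 and 13.23 after GMA-SS. The groups did not overlap at either time, and the log2 fold change was -0.43 at both (SE 0.0857, limma, adjusted p = 0.00198 and 0.00263).

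The *Cyp4f* genes, which hydroxylate leukotrienes and long fatty acids, went in different directions. *Cyp4f15* was 8.54 ± 0.09 in air and 7.85 ± 0.17 after GMA-SS at 4 hr, and 8.70 ± 0.14 and 7.99 ± 0.35 (SD, n = 4) at 28 d. No GMA-SS array reached the lowest air array of its time, and the log2 fold changes were -0.69 (SE 0.14, limma, adjusted p = 0.0022) and -0.70 (SE 0.14, limma, adjusted p = 0.00274). *Cyp4f13* (11.07 ± 0.07 in air and 10.81 ± 0.09 after GMA-SS) fell by 0.27 on the log2 scale at 4 hr (limma, adjusted p = 0.0104) and was -0.09 at 28 d (adjusted p = 0.409). *Cyp4f16* gave -0.13 and -0.05 (adjusted p = 0.298 and 0.757, limma).

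*Cyp4f39*, which hydroxylates very long fatty acids of the skin barrier in mice, was the exception at 4 hr. It was 6.98, 7.53, 7.65 and 6.87 in air and 8.34, 8.09, 8.09 and 7.80 after GMA-SS, with no overlap (log2 fold change 0.82, SE 0.16, limma, adjusted p = 0.00164). At 28 d it was 8.25 ± 0.13 in air and 8.29 ± 0.17 after GMA-SS, so that the air group itself stood higher on that beadchip. The log2 fold change there was 0.05 (adjusted p = 0.89, limma), and the difference between times did not pass (-0.78, SE 0.226, limma, adjusted p = 0.225).

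*Cyp4f18* and *Cyp4v3* were higher at 28 d. *Cyp4f18* was 7.78, 7.93, 8.03 and 7.67 in air and 8.78, 8.52, 8.76 and 7.93 after GMA-SS, where 1 GMA-SS array lay within the air range (log2 fold change 0.64, SE 0.209, limma, adjusted p = 0.045, lost without any 1 of 7 of the 8 arrays). Of these air arrays the one at 8.03 was not above background. The log2 fold change at 4 hr was 0.57 (adjusted p = 0.0686, limma). The summed signal of 12 leukocyte markers was 89011 to 104329 after GMA-SS and 81316 to 88406 in air at 28 d, and 88255 to 91019 and 74299 to 86248 at 4 hr, and its part in the *Cyp4f18* values was not tested. *Cyp4v3*, the mouse counterpart of the human retinal fatty acid hydroxylase CYP4V2, was 11.31 ± 0.03 in air and 11.12 ± 0.12 after GMA-SS at 4 hr, and 11.34 ± 0.07 and 11.53 ± 0.07 at 28 d. The log2 fold changes were -0.18 (SE 0.0605, limma, adjusted p = 0.0415) and 0.20 (SE 0.0605, limma, adjusted p = 0.0361), and their difference was 0.38 (adjusted p = 0.0579). Each call was lost without any 1 of 6 of its 8 arrays.

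The P450 genes of sterol and bile acid metabolism held the largest rise of the set. *Cyp7b1*, the oxysterol hydroxylase needed to make the ligand of the lymphocyte receptor Ebi2, was 9.67, 9.96, 9.77 and 9.48 in air and 10.69, 11.28, 10.63 and 10.58 after GMA-SS at 4 hr. The 28 d arrays gave 9.93, 9.75, 9.79 and 9.56 in air and 11.40, 10.74, 11.26 and 10.14 after GMA-SS. Every GMA-SS array was above every air array at both times. The log2 fold changes were 1.07 (SE 0.215, limma, adjusted p = 0.00195) and 1.13 (SE 0.215, limma, adjusted p = 0.00198), which is 2.1-fold and 2.18-fold. In a list of 7 other oxysterol genes, of which 6 were tested, 2 rose and 1 fell at 4 hr, and 2 rose and 3 fell at 28 d. *Ch25h*, the cholesterol hydroxylase one step before *Cyp7b1*, rose by 1.23 and 1.90 on the log2 scale (limma, adjusted p = 0.000186 and 3.4e-06). *Ebi2* itself rose by 0.85 and 1.04 (limma, adjusted p = 0.00719 and 0.00258), while *Hsd11b1* changed by -0.48 and -0.35 (limma, adjusted p = 0.000165 and 0.00313).

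The other sterol P450 genes were lower or did not pass. *Cyp27a1*, a mitochondrial sterol hydroxylase, was 10.55, 10.70, 10.72 and 10.62 in air and 10.35, 10.24, 10.21 and 10.15 after GMA-SS at 4 hr, and 10.69 ± 0.03 and 10.40 ± 0.13 at 28 d. The groups did not overlap, and the log2 fold changes were -0.41 (SE 0.0673, limma, adjusted p = 0.000417) and -0.29 (SE 0.0673, limma, adjusted p = 0.00745). *Cyp8b1*, which makes cholic acid in liver, was dim. At 4 hr it was 6.84 ± 0.21 in air and above background on no GMA-SS array. The signal was at least 1.49-fold lower on the background-corrected scale, a bound not tested for itself. The fitted values gave an adjusted p of 0.000301 (limma), and the log2 fold change was -0.45 when background was not corrected. At 28 d it was above background on 4 air arrays and 1 GMA-SS array, with a log2 fold change of -0.50 (SE 0.155, limma, adjusted p = 0.0346, lost without any 1 of 6 of the 8 arrays). *Cyp39a1*, another oxysterol hydroxylase, gave -0.24 and 0.13 (adjusted p = 0.266 and 0.618, limma).

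Outside the rule, the genes of cholesterol synthesis moved the other way from most P450 genes at 4 hr. Of 18 tested, 12 rose and 1 fell, with a median log2 fold change of 0.50, and at 28 d 6 rose and none fell. *Cyp51*, the demethylase of lanosterol, rose by 1.03 and 0.61 (limma, adjusted p = 8.6e-07 and 0.00026). *Sqle*, the squalene epoxidase, rose by 0.73 and 0.44 (limma, adjusted p = 1.04e-06 and 0.000266).

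For the remaining families, *Cyp1b1* was the gene of interest for combustion products, as a target of the Ah receptor. It was 9.45, 9.64, 9.56 and 9.71 in air and 9.46, 9.66, 9.68 and 9.70 after GMA-SS at 4 hr, and the groups overlapped (log2 fold change 0.04, adjusted p = 0.819, limma). At 28 d it was 9.09, 9.49, 9.03 and 9.19 in air and 9.71, 9.62, 9.69 and 9.59 after GMA-SS (log2 fold change 0.45, SE 0.093, limma, adjusted p = 0.00337). The GMA-SS groups were at 9.63 ± 0.11 and 9.65 ± 0.05, and the air groups at 9.59 ± 0.11 and 9.20 ± 0.21. The difference between times did not pass (0.41, adjusted p = 0.317, limma). The other 2 members of family 1 on the array were not tested in lung. *Cyp3a13*, a drug oxidase, fell by 0.38 on the log2 scale at 28 d (SE 0.123, limma, adjusted p = 0.0419, lost without any 1 of 7 of the 8 arrays) with overlapping groups, and was -0.18 at 4 hr (adjusted p = 0.319). *Cyp20a1*, an orphan P450, gave -0.33 and -0.35 (adjusted p = 0.149 and 0.141, limma).

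Genes that work beside the P450s were also counted in lung. Of 12 tested partners of P450 enzymes (reductase, cytochrome b5, heme and ferredoxin genes), 2 rose and 2 fell at 4 hr, with a median of -0.01. *Por*, the P450 reductase, fell by 0.30 on the log2 scale (limma, adjusted p = 0.0413), and *Alas1*, the first enzyme of heme synthesis, by 0.24 (limma, adjusted p = 0.0107). *Hmox1*, which breaks heme down, rose by 1.02 and 0.91 at 4 hr and 28 d (limma, adjusted p = 2.26e-06 and 1.18e-05). Of 31 other oxidation and conjugation enzymes of foreign compounds, 17 fell and 1 rose at 4 hr, and 14 fell at 28 d, with medians of -0.38 and -0.29. *Sult1d1*, a sulfotransferase, changed by -1.84 and -0.55 (limma, adjusted p = 1.09e-06 and 0.0342), and *Aox3*, an aldehyde oxidase, by -0.89 and -0.64 (limma, adjusted p = 8.72e-06 and 0.000383). Of 22 glutathione transferases, 9 fell and 2 rose at 4 hr, and 7 fell and 1 rose at 28 d.

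Of 23 PPAR alpha targets other than P450s, 8 fell and 2 rose at 4 hr, and 4 fell and 1 rose at 28 d. *Acaa1b*, a peroxisomal thiolase, changed by -2.02 and -1.46 (limma, adjusted p = 1.28e-05 and 0.000491). Of 8 genes of the Ah receptor list, 2 rose and 1 fell at 4 hr. The risers were *Lrg1*, better known as an acute-phase glycoprotein, at 1.88 (limma, adjusted p = 3.67e-09), and *Gsta1* at 0.78 (adjusted p = 0.0111), and *Aldh3a1* changed by -0.92 (adjusted p = 0.000163). Of 11 arachidonate enzymes, 4 rose and 4 fell at 4 hr, and 3 rose and 2 fell at 28 d. Of 13 genes of retinoic acid metabolism, 4 fell and 2 rose at 4 hr, and 5 fell at 28 d. Of 8 xenobiotic nuclear receptors, 1 fell at each time.

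Markers of cell types moved in the same lung samples. Of 15 club cell markers, 8 fell and 2 rose at 4 hr and 2 fell and 2 rose at 28 d, and their summed signal was 182390 to 198259 in air and 168136 to 185055 after GMA-SS at 4 hr. At 28 d the sums were 178839 to 188732 and 171518 to 191600. The club cell list shares *Aox3*, *Aldh1a7* and *Gsto1* with the enzyme lists above, so these counts are not independent. Alveolar type II markers, 4 of 11 of which rose at each time, summed to 332797 to 339367 in air and 360314 to 385907 after GMA-SS at 4 hr. Their median log2 fold change was 0.07 at 4 hr and 0.06 at 28 d. The list holds *Lyz* and *Cd74*, which were also bright in blood (means of 15.11 and 13.86 in air at 4 hr), so its sum is not particular to type II cells. Cardiac muscle sums were 36220 to 50728 in air and 23160 to 37566 after GMA-SS at 4 hr, and smooth muscle sums were 32976 to 35230 and 23211 to 27976. Endothelial sums were lower after GMA-SS without overlap at both times, at 62199 to 71853 against 75091 to 83937 in air at 4 hr and 69075 to 78000 against 80923 to 90711 at 28 d. Alveolar type I sums were also lower without overlap at both times, at 146916 to 158643 against 159270 to 169695 in air at 4 hr. At 28 d they were 145711 to 152051 in air and 131956 to 142384 after GMA-SS, and type II sums were 319767 to 328532 and 349822 to 356100. Erythroid sums at 4 hr were 93574 to 97166 in air and 85060 to 90637 after GMA-SS, and overlapped at 28 d. The part of these shifts in the P450 values was not tested. Liver markers, of which 2 of 10 were tested in lung, summed to 82.6 to 157 on all lung arrays. Between 10239 and 10872 of 18138 entries were above background on a lung array, 8090 to 8406 in blood and 8678 to 9646 in aorta, and of the P450 genes 23 to 29, 10 to 15 and 14 to 28.

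In whole blood cells none of the 15 tested P450 genes passed the adjusted test at either time. The lowest adjusted p was 0.98 at 4 hr and 0.613 at 28 d (limma), and 0.0108% and 0% of all 9277 genes passed. At an unadjusted p under 0.05, 1 member passed at each time, against 5% and 7.79% of all genes. *Cyp20a1* was 6.35, 6.34, 6.03 and 6.29 in air and 6.69, 6.70, 6.65 and 6.42 after GMA-SS at 28 d. Each GMA-SS array was above each air array, with a log2 fold change of 0.36 (SE 0.12, limma, adjusted p = 0.613). *Cyp2s1* was 5.75, 5.74, 6.19 and 6.03 in air and 5.65, 5.54, 5.86 and 5.53 after GMA-SS at 4 hr, with overlap (log2 fold change -0.28, SE 0.128, limma, adjusted p = 0.98). *Cyp4f18* was at 8.86 to 9.85 over the 16 arrays, and its groups overlapped at both times. *Cyp4f13* ranged from 8.71 to 9.17, *Cyp27a1* from 7.30 to 8.72, *Cyp2d22* from 7.03 to 7.70 and *Cyp4v3* from 6.37 to 8.04. Of these 4 genes *Cyp4v3* at 28 d had the log2 fold change farthest from 0 (0.22, SE 0.152, limma, adjusted p = 0.762). Groups did not overlap at 28 d for 2 members, *Cyp20a1* and *Cyp11a1*, against 2.94% of all genes. *Cyp7b1*, which rose in lung, was above background on no blood array.

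In the aorta none of the 22 tested P450 genes passed at either time, and neither did any of the 9870 genes tested (limma, 0% at both times). The lowest adjusted p of a member was 1 at 4 hr and 0.711 at 28 d. At an unadjusted p under 0.05 no member passed at 4 hr and 3 did at 28 d, against 3.86% and 6.82% of all genes. These were *Cyp7b1* (log2 fold change 0.60, SE 0.25), *Cyp20a1* (-0.32, SE 0.133) and *Cyp39a1* (-0.20, SE 0.0849), each with an adjusted p of 0.711 by limma. *Cyp2e1* was at 11.54 to 13.10 on the 15 aorta arrays, and 13 tested fat cell markers summed to 117316 to 131823 on the same arrays. *Cyp2d22* ranged from 10.04 to 10.64, *Cyp4f13* from 8.81 to 9.56, *Cyp27a1* from 8.82 to 9.43 and *Cyp4v3* from 8.79 to 9.11. Their log2 fold changes lay between -0.12 and 0.05 at both times, with no adjusted p under 0.826 (limma).

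**Figure D4:**
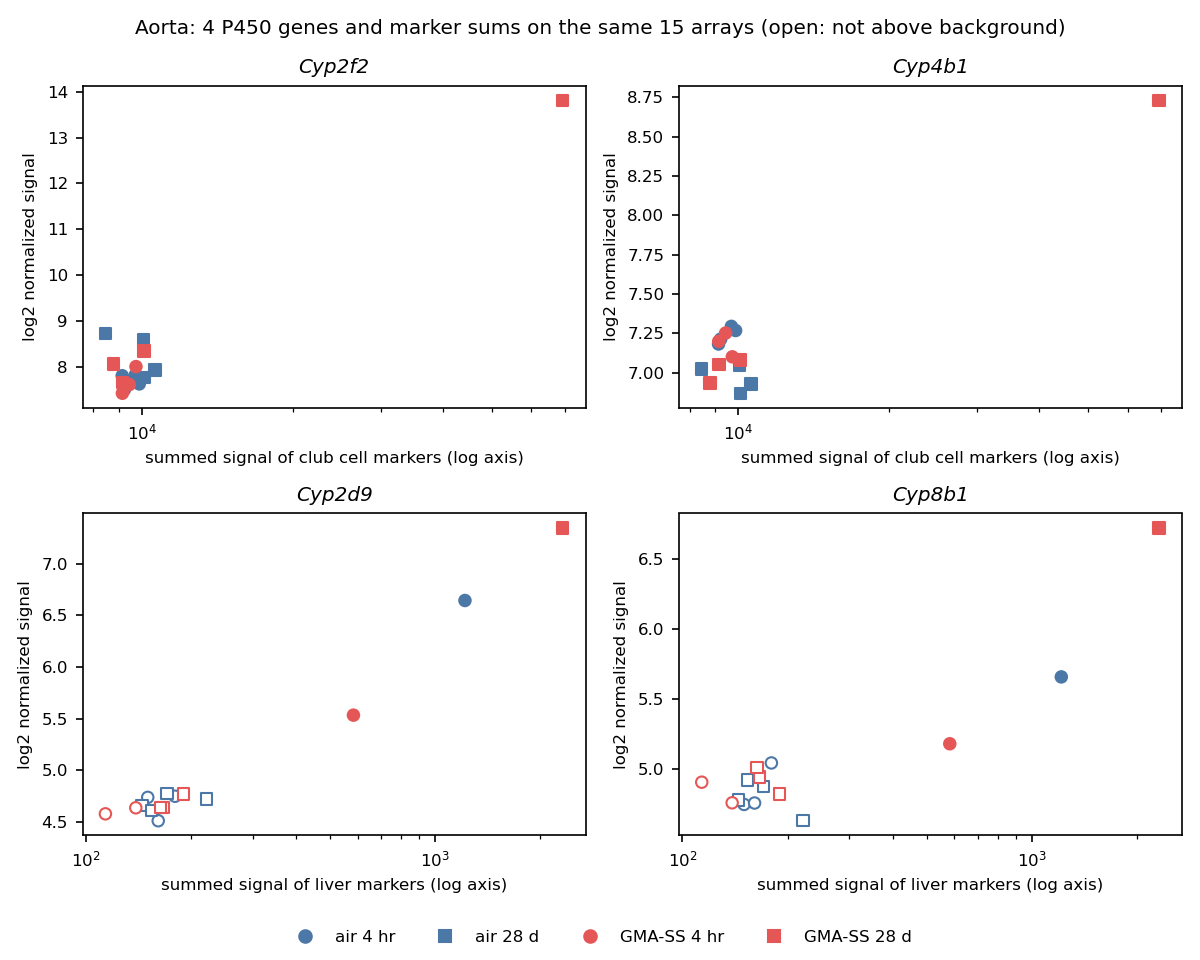
Log2 normalized signal (y axis) of 4 P450 genes against the summed normalized signal, linear, of markers of club cells or liver (x axis, log scale) on each of the 15 aorta arrays; color is exposure, shape is time, open points were not above background. 1 GMA-SS array at 28 d stands apart at a club cell sum of 69364, and 3 arrays stand apart by their liver marker sum.

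A few aorta arrays stood apart both in some P450 genes and in club cell or liver marker sums, and the cause was not tested. *Cyp2f2* and *Cyp4b1* were above background on all 15 aorta arrays. *Cyp2f2* was 7.77 to 8.72 in air at 28 d, and 8.06, 13.81, 8.34 and 7.65 after GMA-SS (log2 fold change 1.22, SE 0.954, limma, adjusted p = 0.804). Its high value was that of replicate 2, on which 11 club cell markers summed to 69364, against 8456 to 10615 on the other 14 arrays. Replicate 2 was also the highest of all 15 arrays for *Cyp4b1* (8.73), *Cyp2s1* (8.77), *Cyp2b10* (8.25) and *Cyp2j9* (7.79). *Cyp2d9*, a steroid hydroxylase of male mouse liver, was above background on 3 arrays. These were replicate 3 of GMA-SS at 28 d (7.34), replicate 1 of air at 4 hr (6.64) and replicate 3 of GMA-SS at 4 hr (5.54). The same 3 arrays had the highest sums of 6 liver markers, at 2317, 1216 and 583, against 113.6 to 221 on the other 12. *Cyp8b1* and *Cyp2d10* were above background on these 3 arrays alone. *Cyp7b1* was 5.26, 6.36, 6.39 and 5.06 after GMA-SS at 28 d, with the high values on replicates 2 and 3. Without these 4 arrays, a choice made after the data were seen, its log2 fold change was -0.01 (limma, adjusted p = 0.996). That choice removed both high *Cyp7b1* values and left only replicates 1 and 4 of GMA-SS at 28 d, so the drop followed from it. Still no member passed.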

How the data were processed

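MouseRef-8 beadchips measured the RNA in lung, blood cells and aorta on 47 arrays. The authors exported the intensity of each entry from BeadStudio as the average signal over like beads, with no background subtracted and no scaling between arrays. The deposited detection p-value of an entry compares its brightness with that of the negative control beads on the array. The authors also deposited normalized log2 values made with lumi and limma, whose transformation is not given in the sources used here, and these served only as an alternative.

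Background was estimated from the detection p-values of 13689 entries of 1 probe and removed by normexp with an offset of 16, followed by log2 and quantile normalization within each tissue (R 4.3.3, limma 3.58.1). Entries above background (detection p under 0.05) on at least 3 arrays were kept, with 1 entry per gene, the one of highest mean. Of the 75 members, 16 entries average several probes, so copies and transcripts are not resolved there. Group means were fitted over all arrays of a tissue with limma (lmFit, eBayes with a trend), and p-values were adjusted by Benjamini-Hochberg over all genes tested in the tissue. Precision is limited by the number of arrays. The scripts were tested on simulated data.

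Where a gene was above background on no array of 1 group, the fold is a lower bound. Each array's lowest signal above background stood in there for a dimmer value. The bound was not tested, and the adjusted p beside it is that of the fit on the normalized values. Named with values were *Cyp2f2*, every *Cyp4a* gene above background, every member that passed, the members of lowest unadjusted p in blood and aorta, and the 5 of highest mean signal in each tissue. Other members named with values were picked after their values were seen. Of each list, up to 4 members of lowest p qualified, and *Por* and *Aldh3a1* were named by role. The members and the gene lists were chosen with earlier results of these data known. Alternatives changed the background correction, scaling, filter, source of values, arrays in the fit, entries per gene and replicate block, and left out each array in turn.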

Additional observations from a re-analysis of the deposited data

Results flagged for a closer look

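Dixon's criterion was applied within groups of 4 arrays to the tested P450 genes of the naming rule, not to all tested members. Of 173 such groups, 13 held 1 array far from the others, which chance alone meets in about 1 of 20 groups. These genes were picked partly by their values, so this share does not stand for all tested members. In aorta at 28 d after GMA-SS, replicate 2 stood apart for *Cyp2f2* (13.81, the others 7.65 to 8.34), *Cyp4b1* (8.73, the others 6.93 to 7.08) and *Cyp27a1* (8.82, the others 9.34 to 9.42), and replicate 3 for *Cyp8b1* (6.72, the others 4.82 to 5.01). These are the arrays with the high sums of club cell and liver markers. Among aorta air arrays, *Cyp2b10* was 7.10 on replicate 3 at 28 d (the others 6.26 to 6.34) and *Cyp2d22* 10.48 on replicate 4 at 4 hr (the others 10.54 to 10.55).

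In lung at 4 hr, replicate 2 after GMA-SS was high for *Cyp7b1* (11.28, the others 10.58 to 10.69) and replicate 1 low for *Cyp1b1* (9.46, the others 9.66 to 9.70). Of the air arrays at 4 hr, replicate 2 was high for *Cyp4a12a* (6.84, the others 6.43 to 6.49) and replicate 1 low for *Cyp4f18* (7.21, the others 7.71 to 7.79). *Cyp4a12b* was 9.05 on air replicate 1 at 28 d, the others 8.52 to 8.60. In blood at 28 d, *Cyp2s1* was 5.61 on GMA-SS replicate 2 (the others 5.19 to 5.22) and *Cyp4f18* 9.35 on air replicate 4 (the others 9.67 to 9.71).

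The effect of GMA-SS in lung differed between 28 d and 4 hr for *Cyp4a12b* by 2.46, for *Cyp2a5* by 1.47 and for *Cyp4a12a* by 0.99 on the log2 scale (limma, adjusted p = 1.96e-05, 0.026 and 0.0166). Each passed as lower at 4 hr and did not pass at 28 d, a time on a beadchip of its own. The values for both *Cyp4a12* genes rest on a group at background and are no measured sizes.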

How the results depend on the processing

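Of 28 calls of single P450 genes in lung, 19 kept direction and call under each setting run that still tested the gene. Over 465 gene settings 396 kept both, 69 lost the call and 0 reversed. The stricter detection filter left *Cyp4a12a* and *Cyp8b1* untested, which was not counted as a lost call. Sizes moved more than calls: with no background correction and in the authors' normalized values, the log2 fold change at 4 hr was -1.48 and -0.56 for *Cyp4a12b* (-2.73 as reported), -0.46 and -0.22 for *Cyp4f15* (-0.69), 0.48 and 0.19 for *Cyp4f39* (0.82) and -0.45 and -0.13 for *Cyp8b1* (-0.97), and the difference between times for *Cyp4a12b* was 1.3 and 0.465 (2.46). At 28 d the count of members called was 11, against 7 with no detection filter and 7 with only the groups compared, and 6 to 12 with each array left out in turn. With each array left out it was 12 to 14 at 4 hr, 2 to 4 for the difference between times, and 0 in blood and aorta. Same-numbered air and GMA-SS arrays gave correlations of deviations from the group means of -0.04 to 0.19 in lung (5 of 8 pairs over 0.1), -0.14 to 0.17 in blood (2 of 8) and -0.33 to 0.49 in aorta (2 of 7), so the numbers were not taken as pairs. With the replicate block the counts were 14, 10 and 2 in lung and 0 elsewhere. Under the block *Cyp2f2* at 28 d (adjusted p = 0.0617, limma) and the *Cyp2a5* difference (adjusted p = 0.0523) lost their calls. Without the 4 aorta arrays high in airway or liver markers, chosen after seeing the data, *Cyp7b1* at 28 d was -0.0109 in place of 0.60. That choice left out both arrays with high *Cyp7b1* values in the 28 d GMA-SS group, so the drop followed from it. Calls lost without 1 array at 28 d were those of *Cyp3a13* and *Cyp4f18* (any array but GMA-SS replicate 4, adjusted p up to 0.127 and 0.142), *Cyp2f2* (any air array, GMA-SS replicates 1 and 3, up to 0.171), *Cyp8b1* (air and GMA-SS replicates 1 to 3, up to 0.122) and *Cyp4v3* (air replicates 1, 3 and 4, GMA-SS replicates 1, 2 and 4, up to 0.0998). At 4 hr they were those of *Cyp4v3* (any air array, GMA-SS replicates 3 and 4, up to 0.138), *Cyp2f2* (air replicate 1, GMA-SS replicates 2 and 3, up to 0.0688) and *Cyp2j9* (air replicates 2 and 3, GMA-SS replicates 2 and 4, up to 0.0867). The *Cyp2a5* difference was lost without 28 d air replicates 3 or 4 or GMA-SS replicate 3, or 4 hr air replicate 3 or GMA-SS replicates 1 or 4 (up to 0.0706). Calls were gained for *Cyp20a1* at 28 d without air replicate 1 (adjusted p = 0.0339), *Cyp2b10* at 28 d without GMA-SS replicate 4 (0.0287), and *Cyp4f18* at 4 hr without GMA-SS replicate 3 (0.0384) or 4 (0.0484), for the *Cyp4v3* difference without 4 hr GMA-SS replicate 2 (0.0363), for *Cyp2a5* at 28 d without GMA-SS replicate 4, for *Cyp2e1* at 4 hr with only the groups compared (0.0267), and for *Cyp2d40* at 4 hr with no background correction, in the authors' values, and without air replicate 3 or GMA-SS replicate 3. The cause was not tested. Signal over background limits the 43 members tested in no tissue, for which no change could be read. No separate fit on 2 groups exists for the difference between times.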
